A study of Mus musculus with 8 samples.

Results

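The mitochondrial ribosome, or mitoribosome, reads the few mRNAs that mitochondrial DNA encodes, and all of those encode subunits of the oxidative phosphorylation complexes. Its ribosomal RNAs are made inside the mitochondrion, but every one of its proteins is encoded in the nucleus, translated in the cytosol and imported. The proteins of the small subunit (Mrps genes) surround the site where the mRNA is decoded, and those of the large subunit (Mrpl genes) surround the site where the peptide bond is formed. Lymphocytes leaving the resting state are known to expand their mitochondria, and the cells measured here were resting.

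The genes described are the protein-coding mouse genes whose symbol is Mrpl or Mrps followed by a number and at most 1 letter. There were 78 of them among the 53801 Ensembl gene IDs of the deposited counts, 49 named for the large and 29 for the small subunit. The rule uses the symbol and no measured value. A count was present in every library for 71 members, and each library held a count for 75 to 77. Mrpl53, a large subunit gene whose span overlaps Ccdc142, was listed at 0 in all 8 libraries, which allows up to 3 counts in each by counting error alone. The handling of reads in overlapping genes is not given. By structure Mrps18a and Mrps30 belong to the large subunit in spite of their names, and Mrps36 is better known as a subunit of the 2-oxoglutarate dehydrogenase complex. They were counted by their symbols unless stated.

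B cells and T cells came from the spleens of B6 mice, were isolated with magnetic sorting kits and spent 2 hours in culture medium. The labels give every sample a treatment of 15 minutes with 100 µg/ml cycloheximide, an inhibitor of cytosolic translation elongation, and no other agent or allele. RNA-seq read the mRNA. Ribosome profiling read translation from footprints, the pieces of mRNA that cytosolic ribosomes shield from nuclease. The 4 groups had 2 libraries each. By the submitters' numbering these were libraries 1 and 3 of B cells, for either assay, T cell libraries 1 and 4 of RNA-seq and T cell libraries 1 and 2 of footprints.

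RNA-seq libraries held 8945905 to 10050986 counts and footprint libraries 136433 to 627833. Levels are in CPM, the counts found per 1000000 counts of the scaled total, and 1 count was worth 0.102 to 0.112 CPM in RNA-seq and 1.6 to 7.96 CPM in footprints. All 10 B cell markers and all 10 T cell markers were detected in the mRNA of their own cell type. As a median percentage of their level in the own cell type, T cell markers reached 0.743% (library 1) and 10.4% (library 3) in B cell mRNA, and 1.11% and 3.92% in B cell footprints. B cell markers reached 0.531% (library 1) and 1.48% (library 4) in T cell mRNA, and 1.27% (library 1) and 4.27% (library 2) in T cell footprints. In mRNA, 7 natural killer cell markers summed to 21.2 and 94.2 CPM in B cells (libraries 1 and 3) and 374 and 507 CPM in T cells (libraries 1 and 4). The sums of 5 plasma cell markers were 1906 and 655 CPM against 1147 and 124 CPM. Those of 8 myeloid markers were 49.7 and 141 CPM against 54.6 and 259 CPM. The part of other cells in the results was not tested. From 2.76% to 18.6% of footprint counts were of small nuclear and nucleolar RNA. The mice differed in sex between libraries: Xist, the X inactivation RNA of females, had 2362 and 1437 counts in RNA-seq libraries 1 of B and T cells and 2 and 3 in the others. Conversely, 4 Y-linked genes had 1616 and 1575 counts in RNA-seq libraries 3 and 4, and in footprints 72 and 53 (B cells) against 3 and 35 (T cells). In RNA-seq each cell type thus had 1 library of either sex, and the fits had no term for sex. B cell libraries numbered 1 differed in sex between the assays. The part of sex in the results was not tested. All 37 mitochondrially encoded genes, including the 13 mRNAs and the 2 ribosomal RNAs that mitoribosomes read or contain, were listed at 0 in all 8 libraries. The settings of mapping and counting are not given, so these zeros do not show that the transcripts were absent from the cells.

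Mitoribosomal genes often start back to back with another gene. Of the 69 members with an entry among the RefSeq promoters (build GRCm38.p6), 21 (30.4%) had a protein-coding neighbour on the other strand starting within 500 bases upstream, against 7.53% of 17492 protein-coding genes and 12.5% of the 9129 that were tested in RNA-seq. Mrpl46 and Mrps11 form such a pair with a member in each subunit, 42 bases from start to start. Mrps12 starts 147 bases from Sars2, which encodes the mitochondrial seryl-tRNA synthetase, and Mrpl43 starts 116 bases from Twnk, the mitochondrial DNA helicase gene. Mrpl49 starts 192 bases from Fau, a cytosolic ribosomal protein gene, and Mrpl47 starts 308 bases from Ndufb5, a subunit gene of respiratory complex I.

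The stretches below belong to members on which the results turn. Mrps6 and Mrps7 differed in mRNA between the cell types, Mrps12 was low in footprints in both, and Mrpl46 is the pair with Mrps11. Each runs 5′ to 3′ in the direction of the named gene, ends at the base before its start and is given by RefSeq for GRCm38.p6. Where a neighbour starts upstream the stretch is confined to the bases between both starts. Capitals mark any of 4 words on either strand: CCGGAAG, the core bound by ETS factors, GCGCATG, most of the palindrome bound by the respiratory factor NRF1, CCAAT, and TATAAA. The positions are chr16:92058086-92058335 on the plus strand for Mrps6, chr11:115603917-115604139 on the plus strand for Mrps7, chr7:28741822-28741967 on the minus strand for Mrps12 and chr7:78783090-78783130 on the minus strand for Mrpl46.
Mrps6: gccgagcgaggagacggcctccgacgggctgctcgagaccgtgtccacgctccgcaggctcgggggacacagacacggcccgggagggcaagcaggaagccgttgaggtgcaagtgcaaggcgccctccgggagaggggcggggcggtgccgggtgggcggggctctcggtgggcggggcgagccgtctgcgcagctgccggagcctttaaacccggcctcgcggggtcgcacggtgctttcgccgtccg
Mrps7: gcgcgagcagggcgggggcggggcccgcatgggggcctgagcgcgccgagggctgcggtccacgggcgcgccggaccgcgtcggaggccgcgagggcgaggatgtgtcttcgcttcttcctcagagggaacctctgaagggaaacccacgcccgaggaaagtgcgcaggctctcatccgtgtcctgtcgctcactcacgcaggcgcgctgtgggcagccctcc
Mrps12: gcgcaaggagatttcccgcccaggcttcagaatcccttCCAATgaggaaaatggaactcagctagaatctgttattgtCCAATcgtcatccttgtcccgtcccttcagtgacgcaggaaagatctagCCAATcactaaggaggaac
Mrpl46: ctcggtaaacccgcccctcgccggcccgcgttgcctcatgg

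The run before Mrps12 held CCAAT 3 times, with the first base of the word 108, 68 and 19 bases before the start, and the other runs held none of the 4 words. Its G and C content was 49.3%, against 74.4% for Mrps6, 72.6% for Mrps7 and 73.2% for Mrpl46. Over the 250 bases before each start, the ETS core occurred in 18 of 69 members (26.1%), against 10.2% of protein-coding genes and 16.7% of those tested in RNA-seq. The NRF1 word occurred in 8 members (11.6%), 7 of the large and 1 of the small subunit, against 4.51% and 6.85%. CCAAT occurred in 36.2% of the members, against 39.5% and 40.6%, and TATAAA in 7.25%, against 13.7% and 7.67%. None of the 4 words contains another, and a match describes the sequence and does not show that a factor is bound.

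The first comparison was between B and T cells in mRNA. Resting B and T cells carried nearly the same mRNA levels of most mitoribosomal genes. Of 77 members tested, Mrps7 was higher in B cells and Mrps6 and Mrpl18 were lower, so that 3 members (3.90%) passed the threshold, against 18.5% of the 13929 genes tested (edgeR quasi-likelihood test, Benjamini-Hochberg adjusted p under 0.05 over all genes). By direction, 9.4% of all genes passed as higher in B cells and 9.06% as lower. Log2 differences are B over T cells, with n = 2 libraries in each group throughout. The median member differed by -0.05, the large subunit by -0.05 and the small subunit by -0.05, beside -0.01 over all genes. The quartiles of the members were -0.17 and 0.12, while those of all genes were -0.42 and 0.38. A difference of at least 2-fold was estimated for 2 members (2.60%) and for 25% of all genes. At an unadjusted p under 0.05 in the edgeR test there were 5 of the 77 members higher and 8 lower. Of the 13929 genes tested, 2162 were higher and 2360 lower at that level.

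**Figure D1:**
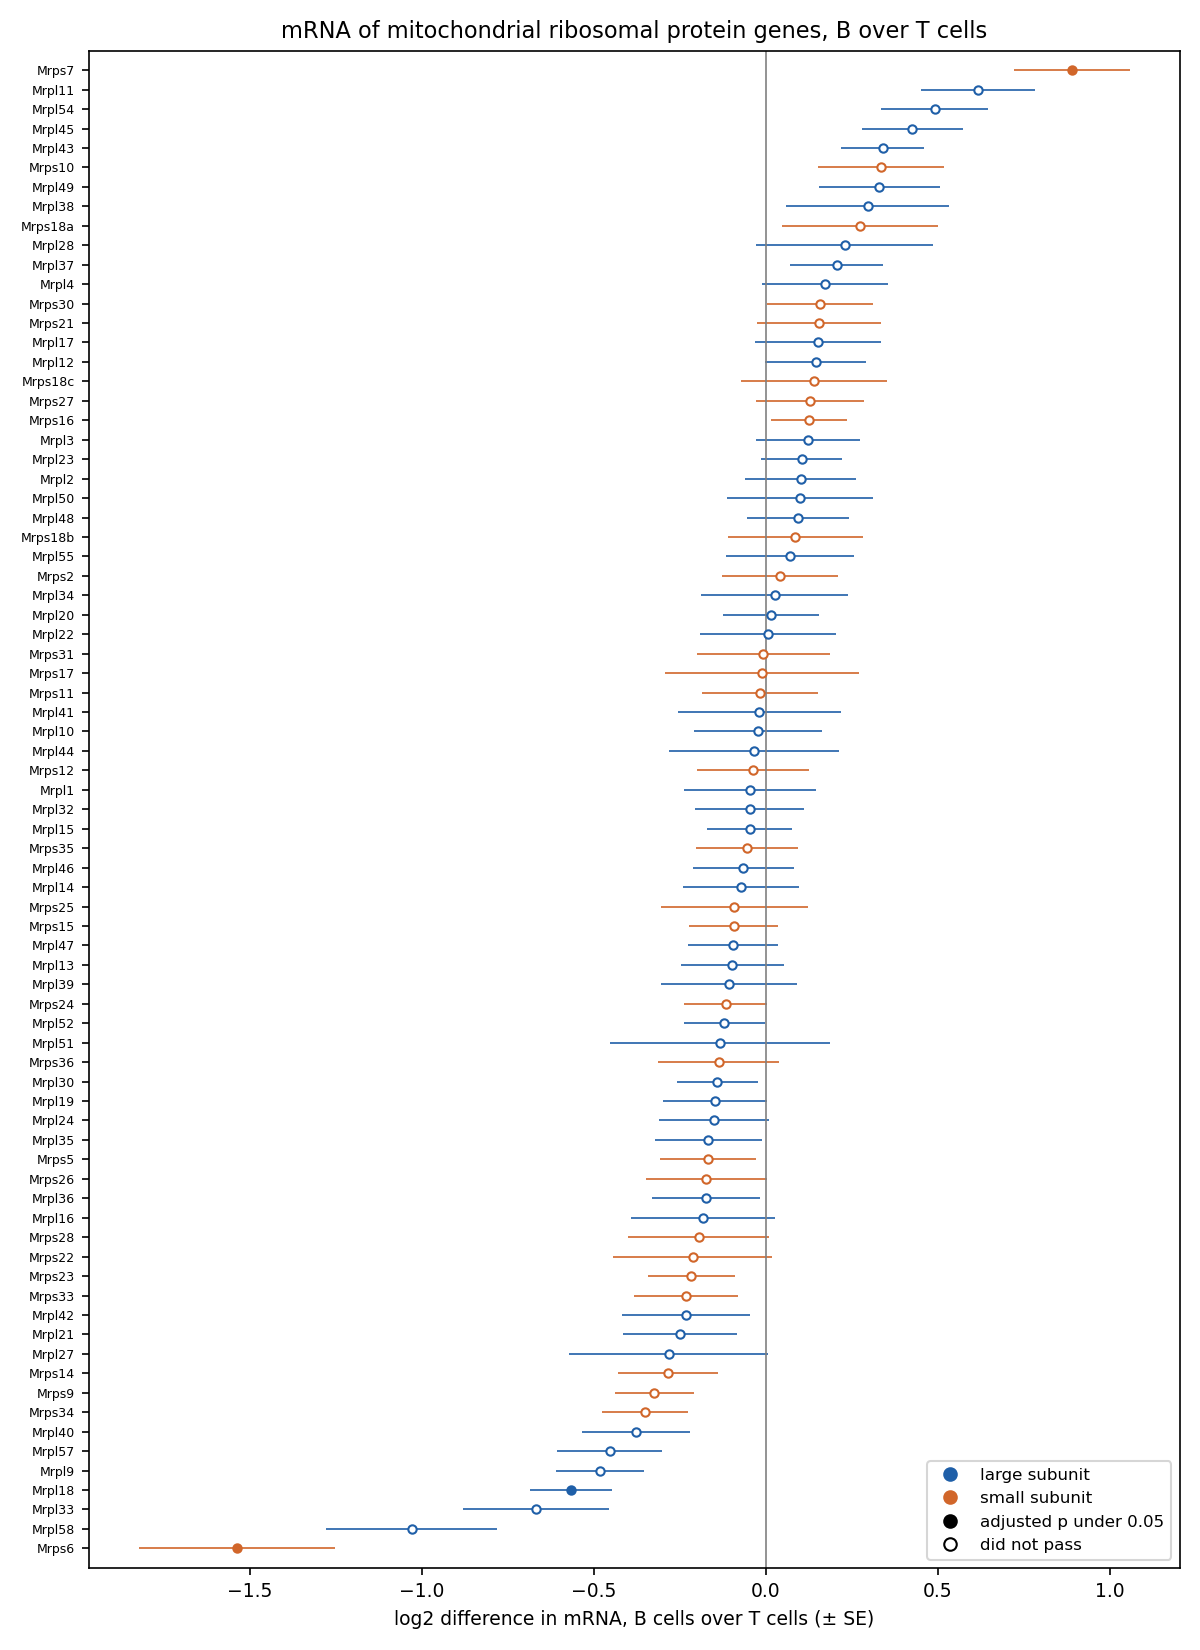
Log2 difference in mRNA between B and T cells (horizontal axis, ± SE) for each of the 77 members tested, sorted by size and coloured by subunit as named. Filled points passed an adjusted p of 0.05. The quartiles are -0.17 and 0.12, Mrps6 stands at the bottom at -1.54 and Mrps7 at the top at 0.89.

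Mrps6 (ENSMUSG00000039680, chr16:92058336-92112227) encodes a protein of the platform of the small subunit and had the largest difference. Its mRNA stood at 4.49 and 6.67 CPM in B cell libraries 1 and 3 and at 16.9 and 15.5 CPM in T cell libraries 1 and 4. Both T cell libraries were above both B cell libraries, and Mrps6 fell by 1.54 ± 0.29 (SE) on the log2 scale in B cells (edgeR adjusted p = 0.0283). Slc5a3, a myo-inositol transporter gene inside its span, had 3.14 and 2.41 CPM in B cells and 6.30 and 5.50 CPM in T cells, a log2 difference of -1.09 that did not pass (adjusted p = 0.0969). Since the counting of overlapping genes and strands is not given, reads of the pair may be shared.

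Mrps7 (ENSMUSG00000046756, chr11:115604140-115608036) encodes a protein that binds the ribosomal RNA of the small subunit head. It had 77.9 and 96.2 CPM in B cell libraries 1 and 3 and 42.7 and 51.2 CPM in T cell libraries 1 and 4. All B cell values were above all T cell values, and Mrps7 rose by 0.89 ± 0.17 on the log2 scale in B cells (edgeR adjusted p = 0.0299). Its span overlaps Gga3 and Mif4gd, and Mif4gd moved the same way with 268 and 279 CPM in B cells against 52.4 and 74.0 CPM in T cells, a log2 difference of 2.11 ± 0.21 (adjusted p = 0.00782). The part of Mif4gd reads in the Mrps7 count was not tested. Gga3, which starts 224 bases away on the other strand, differed by 0.30 (adjusted p = 0.296).

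Mrpl18 (ENSMUSG00000057388, chr17:12911345-12917787) belongs to the ribosomal protein family that contacts the smallest ribosomal RNA in bacteria. It had 43.8 and 40.6 CPM in B cell libraries 1 and 3 and 62.6 and 62.1 CPM in T cell libraries 1 and 4. The libraries did not overlap, and Mrpl18 fell by 0.56 ± 0.12 on the log2 scale in B cells (edgeR adjusted p = 0.0384). Tcp1, the chaperonin gene that overlaps it, differed the other way by 0.18 (adjusted p = 0.612).

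Mrpl58, the peptidyl-tRNA hydrolase also called Ict1 that became a structural protein of the large subunit, had the next smallest p. It had 24.8 and 33.9 CPM in B cells and 50.1 and 69.7 CPM in T cells, a log2 difference of -1.03 ± 0.25 that did not pass (edgeR adjusted p = 0.0532). The libraries of the cell types did not overlap for Mrpl58 either. Of the other members with large estimates, Mrpl33 differed by -0.67 ± 0.21 (adjusted p = 0.101), Mrpl11, a protein at the base of the large subunit stalk, by 0.62 ± 0.17 (adjusted p = 0.0684), and Mrpl54 by 0.49 ± 0.16 (adjusted p = 0.102).

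**Figure D2:**
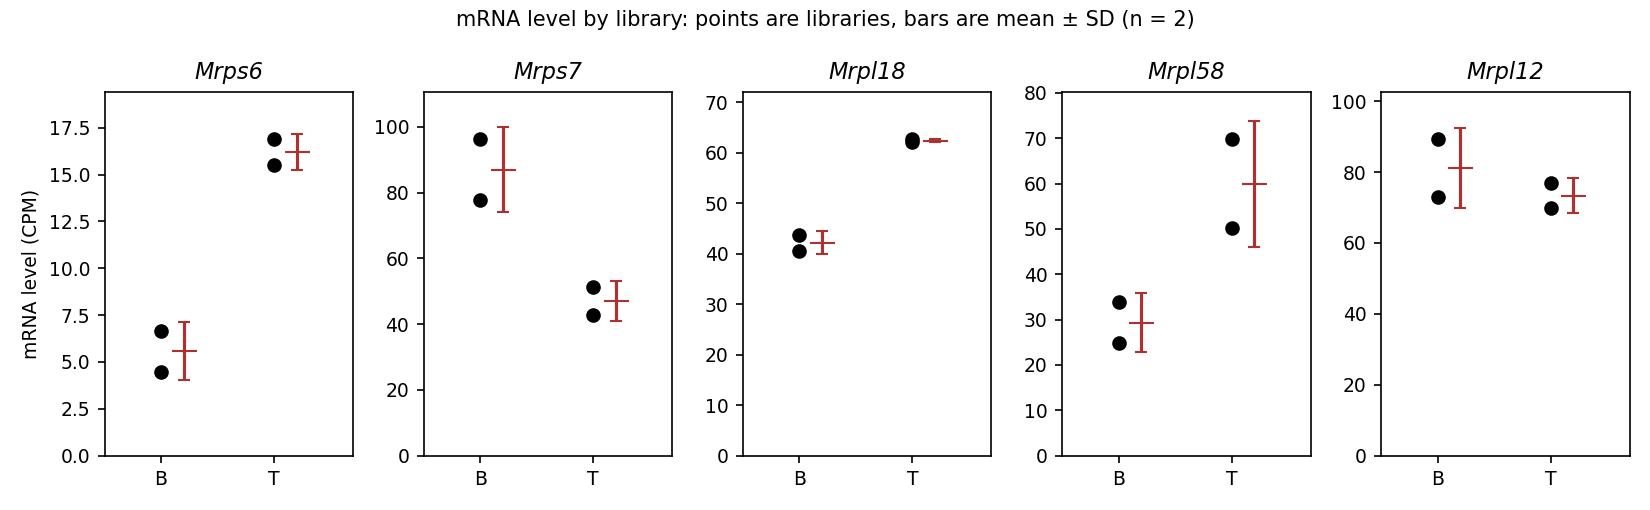
mRNA level in CPM of 5 members in each RNA-seq library, with B cells on the left and T cells on the right of each panel. Points are libraries and bars are the mean ± SD (n = 2). Mrps6, Mrpl18 and Mrpl58 are lower and Mrps7 higher in both B cell libraries than in both T cell libraries, while Mrpl12 overlaps between the cell types.

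Members given whatever their result stood close between the cell types. Mrpl12, the stalk protein that also binds the mitochondrial RNA polymerase, had 73.1 and 89.2 CPM in B cells and 69.9 and 76.8 CPM in T cells (log2 difference 0.15 ± 0.15). Mrps12, a protein of the decoding centre, had 25.3 and 28.9 CPM in B cells and 28 and 27.6 CPM in T cells (-0.04 ± 0.16). Both overlapped between the cell types.

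The Mrps18 genes, paralogues that descend from a bacterial small subunit protein, differed by 0.27 ± 0.23 (Mrps18a), 0.09 ± 0.20 (Mrps18b) and 0.14 ± 0.21 (Mrps18c). Mrps30 differed by 0.16 ± 0.15 and Mrps36 by -0.14 ± 0.18. The paired genes Mrpl46 and Mrps11 differed by -0.06 ± 0.15 and -0.02 ± 0.17. None of these members passed the test (smallest adjusted p = 0.482, for Mrps18a), which does not show that they are equal, and their standard errors give the precision.

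Without regard to the test, B and T cell libraries did not overlap for 39 members (50.6%), 13 of them higher in B cells and 26 higher in T cells. Over all genes tested the share was 61.2%, with 30% higher in B cells and 31.2% higher in T cells. The large subunit had 45.8% of members without overlap and the small subunit 58.6%.

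The 3 calls rested on the full set of 4 libraries. Mrps6 had an adjusted p of 0.0919 when B cell library 1 was left out and 0.0723 when T cell library 1 was, that of Mrps7 was 0.104 without library 3 of B cells and 0.0839 without library 1 of T cells, and that of Mrpl18 lay between 0.0870 and 0.193 with any 1 of the 4 libraries left out. In a fit of all 8 libraries the adjusted p was 0.147 for Mrps7 and 0.358 for Mrpl18, and without the count filter it was 0.0756 for Mrpl18. Without B cell library 3, the library with the most T cell marker RNA, Mrps6 differed by -1.84 (adjusted p = 0.0420). Fits that leave out a library of a group take the spread from the other group alone, which the lone library is assumed to share. In these bulk samples fewer cells with a transcript and less of it per cell cannot be told apart.

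Summed over the family, the members took a similar share of each library. In mRNA the members took 0.311% and 0.356% of the protein-coding counts in B cell libraries 1 and 3 and 0.321% and 0.376% in T cell libraries 1 and 4. In footprints they took 0.296% and 0.304% in B cell libraries 1 and 3 and 0.299% and 0.344% in T cell libraries 1 and 2. B and T cells overlapped in both assays. These footprint shares rest on 601, 550, 1598 and 356 counts in all. Cytosolic ribosomal protein genes, a family made in the same cytosol, took 14.4% to 20.7% of the protein-coding mRNA counts but 2.66% to 4.25% of the footprint counts.

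The subunits were then set against each other within each library. Large subunit members together had 1.72 (95% interval 1.68 to 1.76) and 1.81 (1.77 to 1.85) times the mRNA counts of small subunit members in B cell libraries 1 and 3, and 1.80 (1.76 to 1.84) and 1.77 (1.73 to 1.82) times in T cell libraries 1 and 4. The means were 1.77 ± 0.062 in B cells and 1.79 ± 0.018 in T cells (SD, n = 2), and the groups overlapped. In footprints the ratio was 1.77 (1.5 to 2.09) and 2.16 (1.81 to 2.59) in B cell libraries 1 and 3 and 1.96 (1.77 to 2.18) and 2.07 (1.66 to 2.58) in T cell libraries 1 and 2. T cells thus lay inside the B cell range. Intervals are Wilson intervals of the large subunit share and cover counting error only, and sums over genes of different length do not give the ratio of the subunits.

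The footprint ratio was above both mRNA ratios in both T cell libraries and in B cell library 3, and at 1.77 between them in B cell library 1. With 2 libraries a group an exact two-sided permutation test cannot give a p below 0.333, so none is given. With Mrps18a and Mrps30 moved to the large subunit, where they sit in the structure, the mean ratios were 2.03 and 2.01 in B and T cell mRNA and 2.44 and 2.36 in footprints. The ratio of the median large to the median small subunit member was 1.02 and 0.951 in mRNA and 1.20 and 1.44 in footprints, so the medians of the subunits lay closer together than their sums, which run over 49 and 29 genes.

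**Figure D3:**
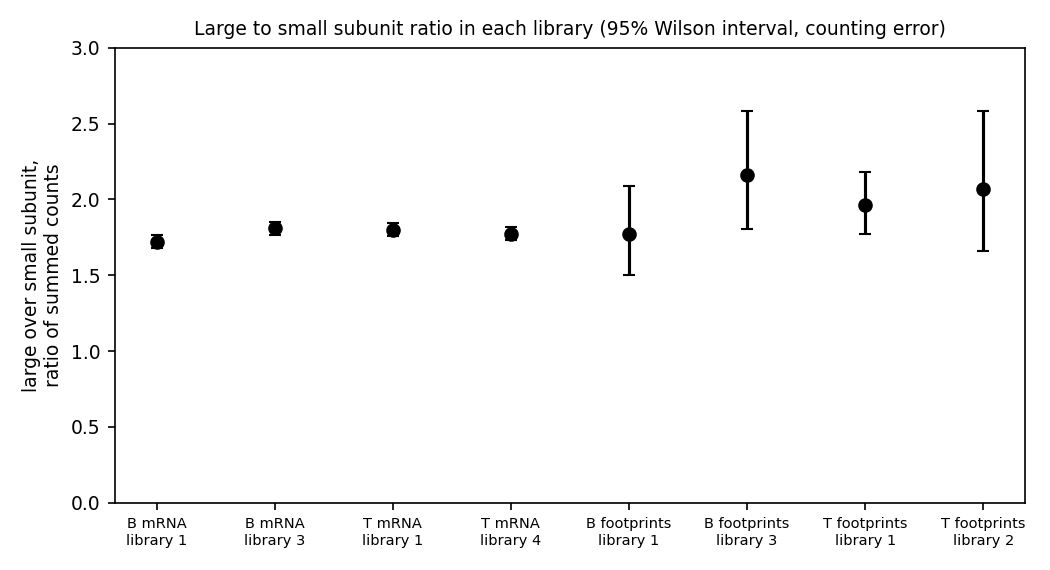
Summed counts of large subunit members over those of small subunit members in each of the 8 libraries, as named by symbol. Points are libraries and bars are 95% Wilson intervals, which cover counting error only. The 4 mRNA libraries lie between 1.72 and 1.81 and the 4 footprint libraries between 1.77 and 2.16 with wider intervals.

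In footprints B and T cells could be compared for 28 members, 19 of the large and 9 of the small subunit, since the other members had too few counts. None passed the edgeR test, against 13.2% of the 4771 genes tested (8.38% higher and 4.8% lower), and none passed with DESeq2. No member had an unadjusted p under 0.05 in the edgeR test, while 1132 of the 4771 genes did. The median was -0.15 (large subunit -0.17, small subunit 0.14), with the smallest adjusted p at 0.220. B and T cell libraries did not overlap for 10 members (35.7%), 5 in each direction, against 52.1% of all genes tested.

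The largest estimate towards B cells was that of Mrpl2, a protein near the peptidyl transferase centre. Its footprints stood at 56.2 and 63.1 CPM in B cell libraries 1 and 3 and at 28.9 and 15.9 CPM in T cell libraries 1 and 2. The libraries did not overlap, and the log2 difference of Mrpl2 was 1.21 ± 0.56 (edgeR adjusted p = 0.220). Mrpl39 differed by 1.14 ± 0.55 (84.2 and 57.8 against 38.5 and 15.9 CPM) and Mrpl54 by 0.86 ± 0.51. Towards T cells, Mrpl13 differed by -0.91 ± 0.61 (18.7 and 31.5 against 43.3 and 55.7 CPM), Mrpl52 by -0.81 ± 0.59 and Mrpl49 by -0.75 ± 0.58.

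Of the members that passed in mRNA, Mrps7 and Mrpl18 could be tested in footprints. Mrps7 footprints stood at 32.8 and 84.1 CPM in B cells and 33.7 and 71.7 CPM in T cells, and its libraries overlapped (log2 difference 0.35 ± 0.62, edgeR adjusted p = 0.820). Mrpl18 had 9.36 and 57.8 CPM in B cells and 46.5 and 47.8 CPM in T cells (-0.52 ± 0.71, adjusted p = 0.755). Mrps6 had 6 and 1 footprint counts in B cell libraries 1 and 3 and 13 and 1 in T cell libraries 1 and 2, too few to enter the test. Without B cell footprint library 3, 1 member passed, Mrpl9 at -1.81 (adjusted p = 0.0309). That fit too takes its spread from T cells alone. With all libraries Mrpl9 differed by -0.74 ± 0.54 (adjusted p = 0.487). The standard errors in footprints were about 0.56 for the median member, beside 0.17 in mRNA.

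Footprints were next compared with mRNA inside each cell type, in a fit of all 8 libraries. A set of 8 members, Mrpl23, Mrpl24, Mrpl30, Mrpl47, Mrps12, Mrps16, Mrps25 and Mrps33, had fewer footprints than their mRNA share in both B and T cells. Of these, 1 (Mrpl24) also passed the count filter in footprints. The other 7 entered the fit through their mRNA counts, the assay in which they are high, so the filter favours a lower value and theirs are a description of low footprint counts. Each library is scaled by its total and a factor computed over all 8 libraries together. A value of 0 thus means the same scaled share of both assays, and the median of all genes was -0.44 in B cells and -0.54 in T cells. Other scalings moved that median to -0.34 and -0.42 (RLE) or -0.24 and -0.35 (DESeq2). Other filters moved it further. It was -1.31 and -1.295 with no filter beyond 1 count, and 0.01 and -0.04 among genes passing the footprint filter. Values are best read beside the median of the same fit. The calls, however, test a difference from 0 and not from that median. In B cells 2 of 77 members were higher in footprints (2.60%) and 8 lower (10.4%), against 6.51% and 12.3% of the 13227 genes tested, 18.8% in either direction. In T cells 1 was higher (1.30%) and 14 lower (18.2%), against 8.91% and 18.6%, 27.5% in either direction. The shares of members lower were thus close to or under those of all genes. Of the members lower, 7 of 8 in B cells and 13 of 14 in T cells did not pass the footprint filter, while the 3 higher members did.

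All 8 members lower in B cells were also lower in T cells (100% of the B cell list and 57.1% of the T cell list). Over all genes, 1292 of the 1623 lower in B cells were also lower in T cells (79.6% of that list and 52.4% of the T cell list). The T cell list also held Mrpl10, Mrpl37, Mrps5, Mrps15, Mrps18a and Mrps26. Across the 77 members, the log2 values in B and T cells correlated with Pearson's r = 0.712 and Spearman's rho = 0.683, as a description over genes that share the assay and the gene model, and 60 (77.9%) had the same sign. Over all 13227 genes r was 0.772, rho 0.705 and the share with the same sign 78.8%, close to the values of the members. The median member stood at -0.36 in B cells and -0.58 in T cells. The large subunit stood at -0.26 and -0.57, and the small subunit at -0.53 and -0.58.

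**Figure D4:**
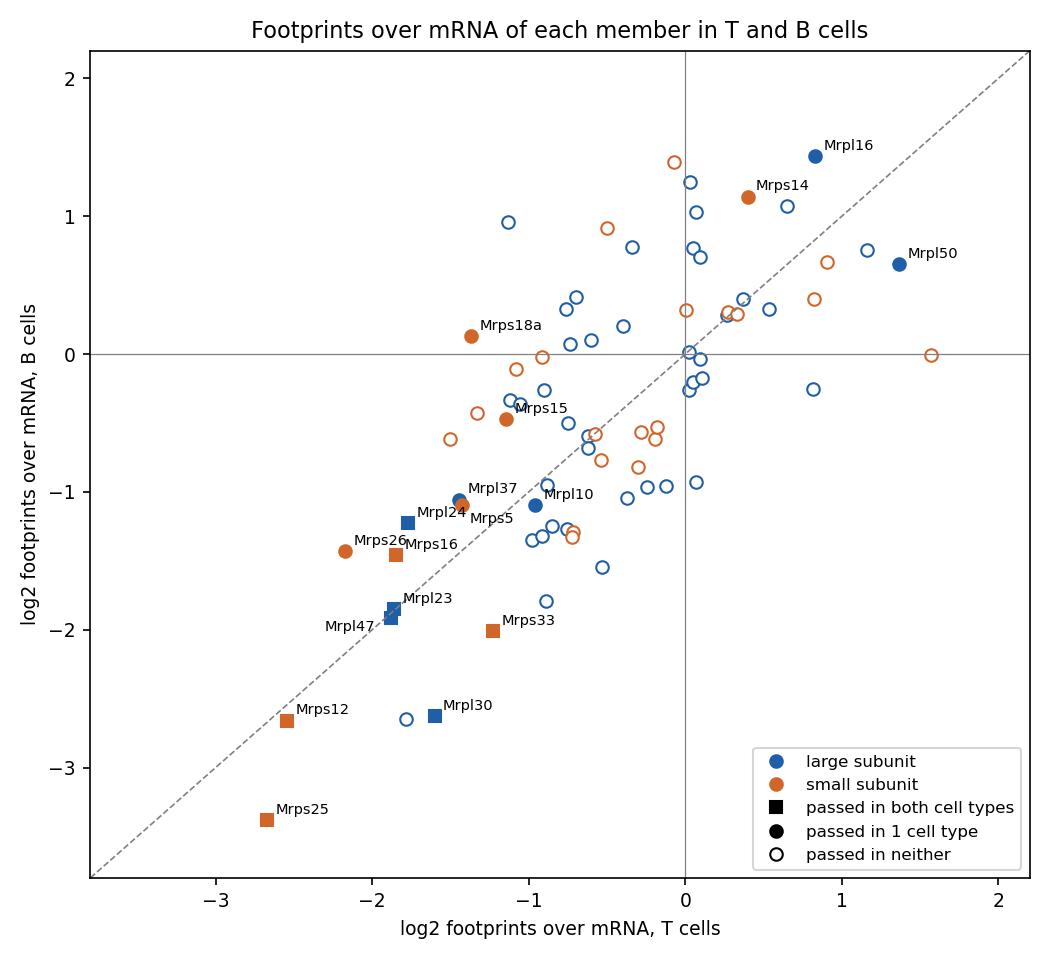
Log2 footprints over mRNA in T cells (horizontal axis) and B cells (vertical axis) for each of the 77 members tested, coloured by subunit as named. Squares passed in both cell types, filled circles in 1 and open circles in neither, and the dashed line marks equal values. The 8 squares lie at the lower left, down to Mrps25 at -3.38 in B cells and -2.67 in T cells.

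Mrps25, a small subunit protein without a bacterial counterpart, had the lowest value in both cell types. It had 2 and 1 footprint counts in B cell libraries 1 and 3 and 10 and 0 in T cell libraries 1 and 2, beside 562 to 799 counts in the mRNA libraries. All footprint libraries were low and under the footprint filter, and the log2 value of Mrps25 was -3.38 ± 0.68 in B cells (edgeR adjusted p = 0.0114) and -2.67 ± 0.53 in T cells (adjusted p = 0.00818). Without T cell footprint library 1, which held all of its T cell footprints, the T cell value was -11.57, a fit to no count. The 3 footprint counts of B cells are 0.112 times the mRNA level, with an exact Poisson 95% interval of 0.0231 to 0.327. Poisson intervals here cover counting error of the footprints only, and the libraries of a group varied by more than that. These ratios use CPM scaled within each assay, so they do not match the log2 values exactly. Its span overlaps Nr2c2, a nuclear receptor gene.

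Mrps12 had 0 and 2 footprint counts in B cell libraries 1 and 3 and 3 and 1 in T cell libraries 1 and 2, beside 225 to 275 counts in the mRNA libraries. The 2 counts of B cells are 0.183 times the mRNA level (interval 0.0222 to 0.661) and the 4 counts of T cells 0.192 times (0.0524 to 0.493). Mrps12 did not pass the footprint filter, and its log2 value was -2.66 ± 0.73 in B cells (edgeR adjusted p = 0.0366) and -2.54 ± 0.61 in T cells (adjusted p = 0.0170). The B cell call was lost with DESeq2 (adjusted p = 0.0560) and in 5 of 8 fits without 1 library, in which the value ran from -10.24 (without B cell footprint library 3, the library with both counts) to -1.62 (without library 1). The T cell call was lost in 2 of 8 such fits.

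Mrpl30 had 4 and 2 footprint counts in B cells, with 24 and 2 in T cells, beside 682 to 870 in mRNA. Its log2 value was -2.63 ± 0.45 in B cells (edgeR adjusted p = 0.00620) and -1.6 ± 0.34 in T cells (adjusted p = 0.0113), and both calls held in 8 of 8 fits without 1 library. Mrpl47, at the polypeptide exit side of the large subunit, had 3 counts in both B cell footprint libraries and 10 and 2 in T cells, with log2 values of -1.92 ± 0.36 and -1.88 ± 0.32 (adjusted p = 0.00927 and 0.00438). Both genes were low in every footprint library. Neither passed the footprint filter, so their values too are a description of low footprint counts. Fits without 1 library do not remove that limit.

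Mrpl24 was the member of the set with the most footprints, with 11, 14, 29 and 6 counts in B cell libraries 1 and 3 and T cell libraries 1 and 2. In CPM these were 51.5, 73.6, 46.5 and 47.8, beside 115 to 151 CPM in mRNA. All 4 footprint values lay below all 4 mRNA values of this gene, whose span overlaps Rrnad1, and Mrpl24 fell by 1.23 ± 0.29 in B cells (edgeR adjusted p = 0.0206) and by 1.77 ± 0.28 in T cells (adjusted p = 0.00354). Mrpl23, which like Mrpl24 lines the exit of the peptide tunnel in bacterial ribosomes, stood at -1.85 ± 0.49 and -1.86 ± 0.46. Mrps16 stood at -1.46 ± 0.38 and -1.85 ± 0.37 and Mrps33 at -2.01 ± 0.43 and -1.23 ± 0.33, in B and T cells. The calls of Mrps33 were lost in 4 of 8 fits without 1 library in B cells and in 6 of 8 in T cells. Those of Mrpl23 and Mrps16 were lost in 3 of 8 each in B cells and 1 of 8 each in T cells. For all of these members, every loss in B cells came on leaving out a B cell library. The B cell contrast uses no T cell library, although T cell libraries enter its scaling and spread. Mrpl23, Mrps16 and Mrps33 did not pass the footprint filter.

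None of the 6 members lower in T cells alone passed the footprint filter, so their values too are a description. Mrps26 stood at -2.17 ± 0.45 (edgeR adjusted p = 0.00958), with -1.43 ± 0.45 in B cells (adjusted p = 0.0587). Mrpl37 stood at -1.44 ± 0.33 in T cells and had -1.06 ± 0.33 in B cells (adjusted p = 0.0542). Mrps5 stood at -1.43 ± 0.37 (-0.62 without T cell footprint library 1) and Mrps15 at -1.14 ± 0.30, whose call was lost in 6 of 8 fits without 1 library. Mrpl10, at the stalk base, stood at -0.96 ± 0.31 (adjusted p = 0.0486), a call lost in 8 of 8 such fits and under 7 of 7 other settings. Mrps18a stood at -1.37 ± 0.40 in T cells (adjusted p = 0.0354) and had 0.13 ± 0.34 in B cells. The difference between the cell types did not pass for any of these 6 members.

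Members with more footprints than their mRNA share were fewer. Mrpl16, a large subunit protein with a bacterial counterpart, had 46.8 and 68.4 CPM in B cell footprints against 15.9 and 20.3 CPM in mRNA, and rose by 1.43 ± 0.36 (edgeR adjusted p = 0.0281). In T cells Mrpl16 had 0.83 ± 0.35 (adjusted p = 0.107). Mrps14 had 79.6 and 78.9 CPM in B cell footprints against 29.9 and 31.6 CPM in mRNA, and rose by 1.14 ± 0.27 (adjusted p = 0.0228). Mrpl50 had 61.0 and 47.8 CPM in T cell footprints against 17.7 and 20.4 CPM in mRNA, and rose by 1.37 ± 0.37 (adjusted p = 0.0269). Footprints and mRNA did not overlap for any of these pairs. Without 1 library, Mrps14 lost its call in 4 of 8 fits, Mrpl16 in 3 of 8 and Mrpl50 in 2 of 8. For Mrps14 these were the fits without a B cell library. With a block for the replicate number neither Mrpl16 nor Mrps14 was called in B cells. In T cells that block leaves 1 library of either assay, and Mrpl50 stood at 1.63. Among genes passing the footprint filter only Mrps14 of these members was called.

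Some larger estimates did not pass. In B cells Mrps6 stood at 1.39 ± 0.71 (adjusted p = 0.199) on 7 footprint counts, Mrpl39 at 1.25 ± 0.38 (adjusted p = 0.0537), and Mrpl33 at -2.65 ± 0.94 (adjusted p = 0.0823) on 1 footprint count. In T cells Mrps22 stood at 1.57 ± 0.54 (adjusted p = 0.0605) and Mrpl55 at 1.16 ± 0.42 (adjusted p = 0.0705). Of the members given whatever their result, Mrpl12 stood at -1.27 ± 0.44 and -0.76 ± 0.40 and Mrps30 at 0.29 ± 0.29 and 0.33 ± 0.28 in B and T cells. Mrps18b stood at -1.29 ± 0.41 and -0.72 ± 0.34, Mrps18c at 0.67 ± 0.53 and 0.90 ± 0.45, and Mrps36 at -1.33 ± 0.54 and -0.72 ± 0.41. The pair Mrpl46 and Mrps11 stood on either side of 0 in B cells, at 0.70 ± 0.47 and -0.77 ± 0.44, and neither passed.

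The counts of calls differed with the genes and libraries used. In a fit of genes passing the count filter in footprints, 28 of them members, 3 members were called in B cells (Mrpl24 and Mrpl43 lower, Mrps14 higher) and 1 in T cells (Mrpl24, -2.0, adjusted p = 0.00216). Without T cell footprint library 1, the deepest, 3 members were called in T cells, 2 of them (Mrpl30 and Mrps25) among the 15 above. In B cells 5, 4 and 3 were called without footprint library 1, mRNA library 1 or mRNA library 3, with 4, 4 and 3 of them among the 10 above. Of the 8 members lower in both cell types, from 2 to 7 were called in both in fits without 1 library.

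The last comparison asked whether footprints over mRNA differed between B and T cells. No member passed, and no gene of the 13227 tested did (percent called 0), while 748 genes had an unadjusted p under 0.05 in the edgeR test. Among the members 4 were higher and 1 lower at that unadjusted level, and DESeq2 called no member either. The large subunit median was -0.02 and the small subunit median 0.000478, beside 0.03 over all genes.

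The largest estimate was that of Mrpl44, a large subunit protein with a ribonuclease III fold. Its footprints stood at 32.8 and 57.8 CPM in B cell libraries 1 and 3 and at 11.2 and 7.96 CPM in T cell libraries 1 and 2, while its mRNA stood at 18.2, 21.3, 16.6 and 23.9 CPM. The footprints did not overlap and the mRNA did, and the difference of Mrpl44 was 2.09 ± 0.63 on the log2 scale (edgeR adjusted p = 0.875). Mrps18a followed at 1.5 ± 0.53, with 42.1 and 52.6 CPM in B cell footprints and 12.8 and 15.9 CPM in T cell footprints. Mrps6 stood at 1.47 ± 0.90 and Mrps28 at 1.42 ± 0.57. In the other direction Mrps22 stood at -1.58 ± 0.94, Mrpl49 at -1.07 ± 0.51 and Mrpl30 at -1.03 ± 0.61, each with an adjusted p of at least 0.875.

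Other genes of mitochondrial translation showed few differences in mRNA. None of the 5 mitoribosomal proteins with other symbols (Dap3, Ptcd3, Aurkaip1, Chchd1 and Gadd45gip1) and none of 26 assembly and ribosomal RNA modification genes passed between B and T cells, against 18.5% of all genes. Among 18 translation factors 1 was higher in B cells (5.56%, against 9.4% of all genes), Qrsl1, a subunit of the enzyme that makes mitochondrial glutaminyl-tRNA. Qrsl1 had 41.1 and 33.9 CPM in B cells and 12.6 and 14.9 CPM in T cells, which did not overlap, and rose by 1.45 ± 0.20 (edgeR adjusted p = 0.0142). Among 15 transcription and RNA processing genes 1 was lower in B cells (6.67%, against 9.06% of all genes), Trmt10c, a subunit of mitochondrial RNase P, at 16.6 and 17.9 CPM against 33.1 and 33.3 CPM (-0.94 ± 0.16, adjusted p = 0.0229).

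Against their mRNA, footprints were lower for 2 of 18 translation factors in B cells (11.1%, Gfm2 and Guf1, against 12.3% of all genes) and for 6 in T cells (33.3%, against 18.6%), including Tufm, the mitochondrial elongation factor Tu (-2.38 ± 0.58, edgeR adjusted p = 0.0190), and higher for none. Of the assembly list, 2 passed with more footprints than their mRNA share in B cells (7.69%, against 6.51% of all genes). Another 2 passed with fewer (7.69%, against 12.3%). For T cells the list had 1 with more (3.85%, against 8.91%) and 6 with fewer (23.1%, against 18.6%). Of the transcription and RNA processing genes 2 were lower in B cells (13.3%) and 3 in T cells (20%), close to the shares of all genes, with Polg, the mitochondrial DNA polymerase gene, lower in both. In footprints alone, 2 of 18 translation factors, 3 of 26 assembly genes and 4 of 15 transcription and RNA processing genes passed the count filter. The other genes of these lists had too few footprint counts for it. For such genes the filter of the fit of all 8 libraries favours a lower value. The 5 subunits with other symbols had none in either direction, with medians of -0.38 and -0.41. Cytosolic ribosomal protein genes had medians of -2.70 and -2.83, with 69 and 71 of 83 lower (83.1% and 85.5%, against 12.3% and 18.6% of all genes). How reads that map to several places were handled is not given, and its part in these values was not tested. Nuclear genes of oxidative phosphorylation had medians of 0.09 and 0.08. The mitoribosomal members, at -0.36 and -0.58, lay between these families and, under the main filter, close to all genes, at -0.44 and -0.54. The closeness to all genes depended on that filter. With no filter beyond 1 count all genes stood at -1.31 and -1.295, and among genes passing the footprint filter at 0.01 and -0.04. The medians of both subunits stayed between -0.56 and -0.15 under the other settings with all libraries.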

How the data were processed

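The authors deposited raw counts per Ensembl gene, 1 file for each of the 8 libraries. FastQC, Bowtie2, TopHat, HTSeq and the mm10 build are listed in the submitters' processing notes. Not given in the sources used here are their versions and settings, the use of strand and the handling of overlapping genes. A names table gave symbols for 53620 of 53801 IDs, and RefSeq tables of GRCm38.p6 gave gene classes, spans and promoters. Whether libraries of 1 group are from different animals is not said, although some differ in sex, and p-values measure the variation among these libraries only. That variation exceeded sampling noise, with a chi-square per degree of freedom of 5.35 to 32.5 within groups.

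The counts were fitted with edgeR 4.0.16 (R 4.3.3), using its quasi-likelihood test after TMM scaling and filterByExpr (minimum count 10, total 15). Benjamini-Hochberg adjustment ran over all genes tested, at a threshold of 0.05. B and T cells were compared within each assay (4 libraries, 2 residual degrees of freedom). Footprints over mRNA, and its difference between the cell types, came from 1 model of all 8 libraries, scaled together (4 residual degrees of freedom). Errors after ± are standard errors for log2 differences and standard deviations otherwise. CPM use TMM-scaled totals within each assay. As alternatives there were DESeq2 1.42.0, scaling by RLE or upper quartiles, other filters, protein-coding genes alone, thinned RNA-seq, a block for the replicate number and the removal of each library in turn.

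The members and all gene lists were chosen with earlier results of these data known. Named were the members that passed a comparison, the 3 largest estimates in each direction, and Mrpl12, Mrps12, the Mrps18 genes, Mrps30, Mrps36 and members at 0. Other genes named are neighbours of these members or were chosen after their values were seen. A ranking by level per coding length was planned but not made, since coding lengths were not used here.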

Additional observations from a re-analysis of the deposited data

How the results depend on the processing

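Between B and T cells in mRNA, 3 members were called. With DESeq2, with upper-quartile scaling and with protein-coding genes alone 5 were called, and with RNA-seq counts thinned to the depth of the shallowest footprint library 0, with 5 members left to test. Mrpl58 joined under all of the first 3 settings. Leaving out 1 library gave 1 to 2 calls. In footprints 0 were called, and 0 to 1 without 1 library. Footprints over mRNA gave 10 calls in B cells and 3 to 13 without 1 library. In T cells there were 15 calls and 3 to 19 without 1 library. With a replicate block 7 were called in B cells. In T cells only number 1 occurs in both assays, so the block there compares 1 footprint library with 1 mRNA library. Its spread comes from B cells, so T cell calls with the block are not counted. In that fit Mrpl23, Mrpl24 and Mrps25 stood at -2.32, -1.59 and -1.98 in T cells. Same-numbered libraries were not taken as pairs: B cell libraries 1 differed in sex between the assays, and across 13227 genes the differences of B cell libraries 1 and 3 in mRNA and in footprints correlated with r = -0.016, and the cause of the lower counts was not tested. Restricting the fit to genes passing the footprint filter, an alternative chosen after seeing the data, gave 3 calls in B cells and 1 in T cells, with 28 members left to test. The difference between the cell types gave 0 members under every setting run. Of 413 recomputed values for called members, 309 stayed past the threshold, 104 did not and 0 changed direction. A called member that a setting filtered out has no value there and is not counted. The 3 mRNA calls dropped out in this way with thinned RNA-seq. Under the footprint filter the called members that did not pass it dropped out too.

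The ratio of large to small subunit moved with the assignment of Mrps18a and Mrps30 to 2.03 in B cell mRNA, 2.01 in T cell mRNA, 2.44 in B cell footprints and 2.36 in T cell footprints, and to 1.02, 0.951, 1.20 and 1.44 as a ratio of medians. Without 1 library it ranged from 1.72 to 1.81, 1.77 to 1.80, 1.77 to 2.16 and 1.96 to 2.07.

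Over all genes, calls fell from 2572 to 525 in thinned mRNA, and to 1455 and 1626 without B cell mRNA library 1 or 3. Calls in footprints fell from 629 to 415 without T cell library 1. Footprints over mRNA in T cells had 3642 calls, 1684 with the block, 1559 under the footprint filter, 947 without T cell footprint library 1 and 2288 without T cell mRNA library 4. In B cells there were 2484 calls, 1203 under the footprint filter, and 1520, 1524 and 1281 without B cell footprint library 3, mRNA library 1 and mRNA library 3. DESeq2 called 10 genes in the difference between the cell types. With the block, the calls in that difference and in T cells rest on T cell library 1 of either assay alone. Depth limits the footprints: 49 of the 77 members tested in mRNA had too few counts to enter the footprint test.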
